A study of Gallus gallus with 5 samples.

Results

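The Z chromosome of the chicken, outside the stretch from 25 to 35 Mb, was described with the peaks of 5 lists made by chromatin immunoprecipitation with sequencing (ChIP-seq) in immature red blood cells. A peak is an interval in which the authors' software counted more sequenced fragments than its background predicts. The members were the peaks placed on Z that ended before position 25000000 or began after position 35000000. This rule used position and no measured value of a peak, but it was chosen with earlier results of these data known. The members numbered 11203 of the 425322 peaks of the series. H4R3me2a gave 2333 members in replicate 1 and 2284 in replicate 2, H3R2me2s gave 2728 and 3222, and the input gave 636. Another 1121 peaks on Z lay inside the stretch left out or across its edges. The highest peak end on Z was 74602318, so the members spread over 64.6 Mb. Coordinates are as the deposited files hold them. No file header names a genome build and no genome of that build was used here, so genes, exons and sequences under the peaks are not given.

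The groups were H4R3me2a, H3R2me2s and input chromatin, which was sequenced without an antibody. H4R3me2a is histone H4 asymmetrically dimethylated at arginine 3 and H3R2me2s is histone H3 symmetrically dimethylated at arginine 2. Each mark had 2 libraries and the input had 1. All came from nuclei of immature (polychromatic) erythrocytes of Gallus gallus in G0, fixed with 0.5% formaldehyde and sheared to 200 bp. The labels give no age, sex, genotype or treatment, name different breeds in different fields, and do not say whether animals were pooled. The design text calls the replicates biological without saying what they share, so p-values measure the spread between these libraries only. Replicate 1 of each mark was sequenced on SOLiD, with fragments selected at 100 to 250 bp, while Illumina was used for replicate 2 and the input. The SOLiD lists were called by MACS 1.4.2 with a control library and a p cutoff of 1e-05. The Illumina lists were called by MACS 2.0.10.20120913 with no control and a q cutoff of 0.05, so platform, depth, caller and control changed together. The 3 Illumina lists name alignment files whose numbers differ from the labels. Groups follow the labels, the replicates are given apart, and an exchange of the Illumina lists was not tested. Peaks carry no gene names, so the cell type could not be checked against marker genes.

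Birds have a ZZ male and a ZW female, and the female's single Z is compensated gene by gene and in part, not along the whole chromosome. The Z is a large chromosome that is gene-poor compared with the microchromosomes, and its distal long arm is known for heterochromatin and for tandemly repeated sequence. Asymmetric dimethylation of H4 arginine 3 is the work of PRMT1 and is a feature of active chromatin, also at globin genes of chicken erythroid cells. Symmetric dimethylation of H3 arginine 2 is attributed to PRMT5 and PRMT7 and is known from promoters, where it is bound by WDR5. Maturing chicken erythrocytes keep a nucleus with highly condensed chromatin.

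After removal of repeated positions the ChIP libraries held 10.3 to 35.1 M tags and the input 27.1 M, per the file headers. With 2 libraries per mark and 1 input, no test here can reach 0.05. Intervals around shares are 95% Wilson intervals, which cover counting error only and treat neighbouring peaks as independent.

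Both marks had fewer peaks per Mb on Z than on the macrochromosomes, chromosomes 1 to 5, in all 4 ChIP libraries. H4R3me2a had 36.1 peaks per Mb on Z against 49.1 on macrochromosomes in replicate 1. It had 35.4 against 93.4 in replicate 2. H3R2me2s had 42.2 on Z against 67.98 on macrochromosomes in replicate 1 and 49.9 against 99.9 in replicate 2. The density on Z thus lay in a narrow band of 35.4 to 49.9 peaks per Mb, while that of the macrochromosomes ran from 49.1 to 99.9. In each ChIP list Z was less dense than all 27 autosomes with a spanned length above 1 Mb. The nearest of the macrochromosomes was chromosome 2 in every ChIP list, with 40.96 and 86.4 peaks per Mb for H4R3me2a and 57.1 and 92.5 for H3R2me2s. The input had 9.84 peaks per Mb on Z and 9.69 on macrochromosomes, and 16 of the 27 autosomes were less dense than Z.

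The ratio of Z to macrochromosomes was 0.735 and 0.379 in H4R3me2a replicates 1 and 2, and 0.621 and 0.499 in H3R2me2s. Its mean was 0.557 ± 0.252 for H4R3me2a and 0.560 ± 0.0861 for H3R2me2s (SD, n = 2 each). Over the 4 ChIP libraries the log2 ratio averaged -0.88 ± 0.41 (SD, n = 4), it was negative in 4 of 4, and a 2-sided exact permutation gave p = 0.125, the smallest that 4 libraries allow. The mean corresponded to a ratio of 0.542. Its size differed between replicates, with a mean log2 ratio of -0.57 without replicate 2 and of -1.20 without replicate 1. It was -1.61 for the 50% of peaks with the highest fold enrichment in each list and -1.35 against all autosomes above 1 Mb. The difference between the marks, H4R3me2a minus H3R2me2s, was -0.08 ± 0.45 on the log2 scale (SD over n = 2 replicate pairs, exact permutation p = 1), and it changed sign between replicates. Bases covered gave a like picture, with peaks on 3.36 and 2.04% of Z for H4R3me2a against 4.63 and 5.08% of macrochromosomes, and on 3.52 and 3.61% for H3R2me2s against 5.70 and 7.39%.

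The equal input density of Z and the macrochromosomes rested on its distal end. Before 71 Mb the input had 5.39 peaks per Mb, which was 0.557 of its density on macrochromosomes. The corresponding ratios of the marks before 71 Mb were 0.693 and 0.347 for H4R3me2a and 0.592 and 0.476 for H3R2me2s, so the input ratio lay between those of the replicate 1 and the replicate 2 lists. The sex of the animals and thus the number of Z copies is not given in the labels, and the part of copy number in these densities was not tested. Without peaks that lay on input peaks the Z ratios were 0.726 and 0.345 for H4R3me2a and 0.608 and 0.484 for H3R2me2s.

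**Figure D1:**
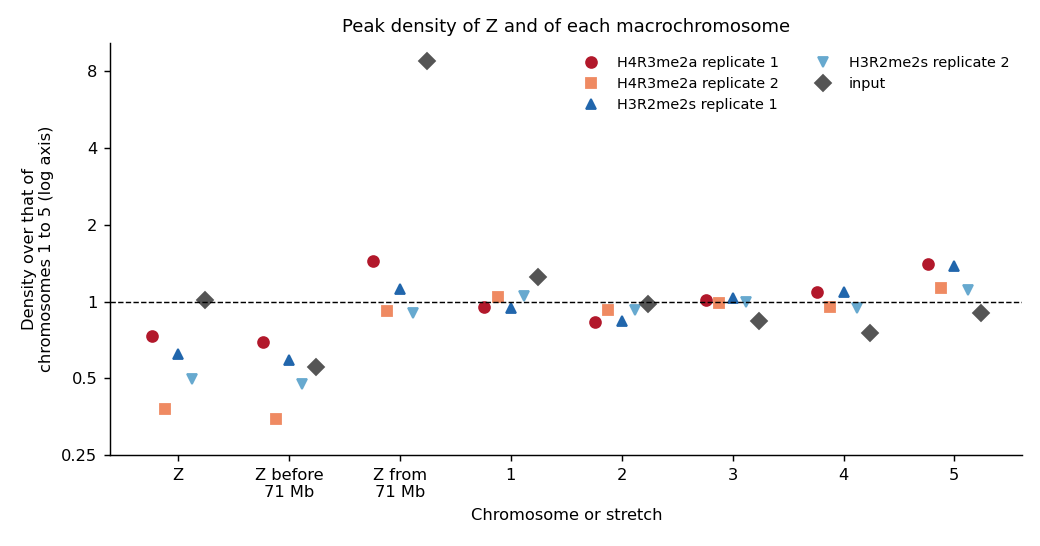
Peak density (vertical axis, peaks per Mb divided by the density over chromosomes 1 to 5, log axis) of Z outside 25 to 35 Mb, of its parts before and from 71 Mb, and of each macrochromosome, with 1 point per library. On Z the 4 ChIP libraries lie between 0.379 and 0.735 and the input at 1.02, and before 71 Mb the input lies at 0.557.

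Peaks on Z were close in width to those on macrochromosomes. Median widths were 702 and 450 bp on Z against 752 and 429 bp on macrochromosomes for H4R3me2a, and 650.5 and 581.5 bp against 668 and 609 bp for H3R2me2s. The log2 ratio of medians averaged -0.03 ± 0.07 (SD, n = 4, 2-sided exact permutation p = 0.5), a difference smaller than the spread between libraries. The input's medians were 167.5 bp on Z and 149 bp on macrochromosomes. By strength, Z peaks were less often in the upper 50% of their list than macrochromosome peaks in all 4 ChIP lists, by a margin that differed between replicates. Ranked by the authors' fold enrichment within each list, the upper 50% of the list held 15.6% of the Z peaks of H4R3me2a replicate 1, against 42.7% of its macrochromosome peaks. For H3R2me2s replicate 1 it held 21.3% of the Z peaks against 43.9%. In replicate 2 these shares were 55.9 against 57.7% for H4R3me2a and 48.8 against 60.2% for H3R2me2s. The direction in H4R3me2a replicate 2 rested on the distal end. Before 71 Mb its share on Z was 59.0%, above that of its macrochromosomes, and from 71 Mb it was 35.9%. In the other ChIP lists the share before 71 Mb stayed below that of macrochromosomes, at 15.9% in H4R3me2a replicate 1 and 21.3 and 50.7% in H3R2me2s. In the upper 10% of the list the order turned for H4R3me2a replicate 2, with 16.9% of Z peaks against 11.9% of macrochromosome peaks. The upper 10% held 3.26 against 6.63% in H4R3me2a replicate 1. For H3R2me2s it held 4.14 against 7.29% in replicate 1 and 9.31 against 12.6% in replicate 2. The median deposited fold was 9.75 on Z and 13.0 on macrochromosomes in H4R3me2a replicate 1, and 3.22 on Z and 3.17 on macrochromosomes in replicate 2. For H3R2me2s it was 7.81 on Z and 9.34 on macrochromosomes in replicate 1, and 2.83 on Z and 3.10 on macrochromosomes in replicate 2. Input peaks before 71 Mb were fewer per Mb and higher, with a median pileup of 23 fragments and a fold of 5.33, against 17 and 4.06 on macrochromosomes.

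Along Z, density was low over most of its length and high in a few short stretches. In 65 bins of 1 Mb the median was 29 peaks per Mb in both H4R3me2a lists, with a range of 1 to 146 in replicate 1 and 1 to 179 in replicate 2. It was 33 in H3R2me2s replicate 1 (range 2 to 177) and 41 in replicate 2 (range 6 to 166). Over the 623 bins of the macrochromosomes the medians were 35 and 83 for H4R3me2a and 50 and 89 for H3R2me2s. Of the Z bins, 5 (7.69%, interval 3.33 to 16.8) were above the macrochromosome median in all 4 ChIP lists, against 42.1% of macrochromosome bins. Below that median in all 4 lists were 44 bins of Z (67.7%, 55.6 to 77.8) and 41.3% of macrochromosome bins. In the lowest class the share on Z was within counting error of that on macrochromosomes: 9 bins (13.8%, 7.46 to 24.3) lay below the macrochromosome lower quartile in all 4 lists, against 17.0%. The 5 densest bins of a list held between 20.95 and 25% of its Z peaks in the 4 ChIP lists and 59.1% in the input.

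Over the 65 bins, the densities of the marks varied together. Spearman's rho between H4R3me2a and H3R2me2s was 0.88 for the SOLiD lists and 0.90 for the Illumina lists. Over the macrochromosome bins it was higher, at 0.98 and 0.99. Between replicates rho over the Z bins was 0.76 for H4R3me2a and 0.77 for H3R2me2s, and over the macrochromosome bins it was 0.92 and 0.94. The bins share their library, depth and base composition, so these values are descriptions. With the input, rho over the Z bins was 0.23 and 0.28 for H4R3me2a and 0.33 and 0.22 for H3R2me2s. Over the macrochromosome bins it was 0.03 and 0.13 for H4R3me2a and 0.03 and 0.12 for H3R2me2s. The number of H4R3me2a peaks per H3R2me2s peak in a bin, counted within a replicate over the 64 bins with a peak in every ChIP list and at least 10 in each replicate, had a median of 0.854 on Z against 0.719 on macrochromosomes in replicate 1, and of 0.667 against 0.934 in replicate 2. The order of Z and macrochromosomes in this ratio was thus opposite in the replicates.

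**Figure D2:**
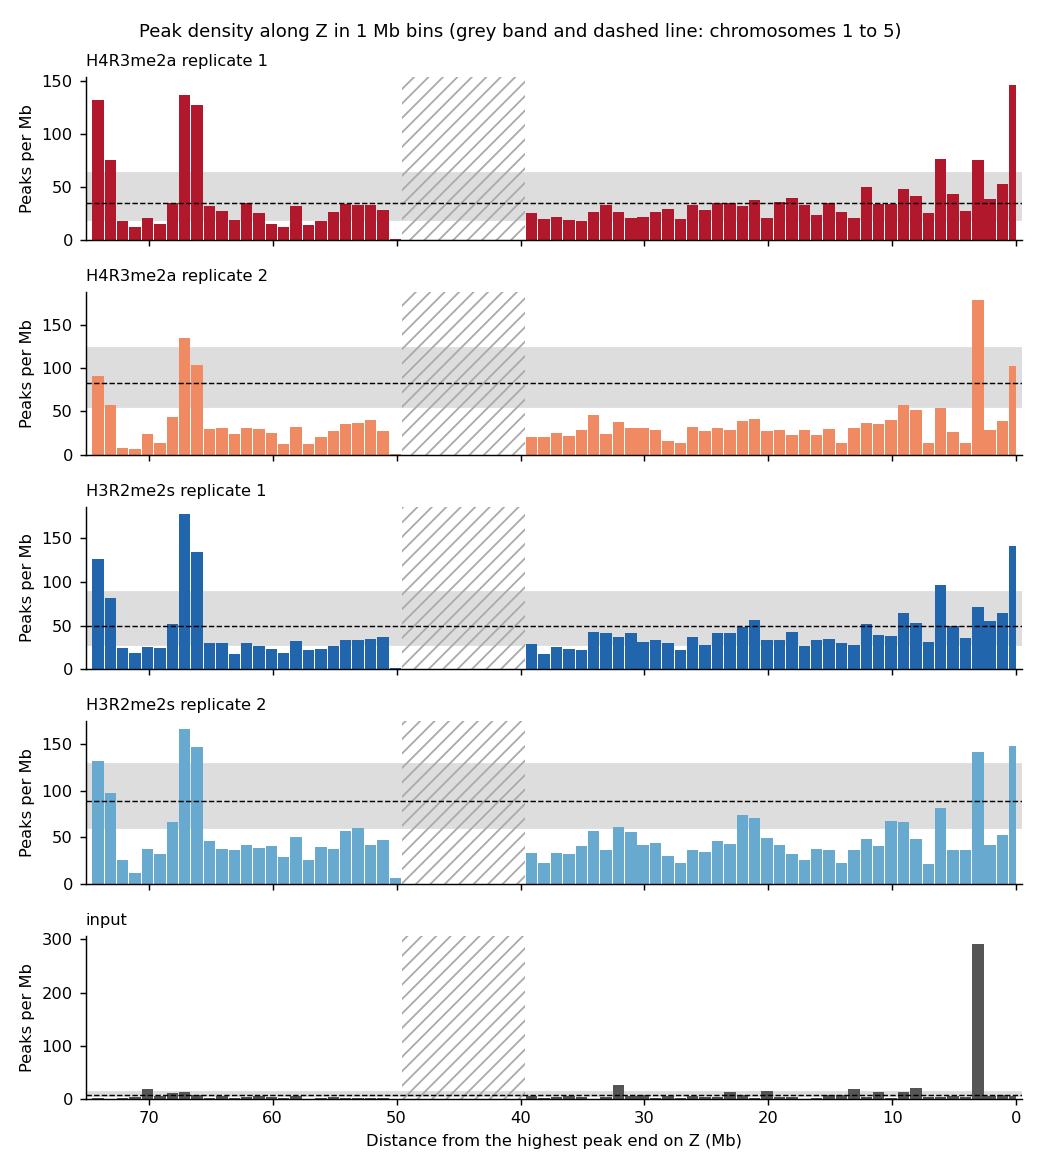
Peaks per Mb (vertical axes) in 1 Mb bins along Z, placed by distance from the highest peak end in Mb (horizontal axis), 1 panel per library, with the stretch of 25 to 35 Mb hatched. The dashed line and grey band are the median and quartiles of the bins of chromosomes 1 to 5; the 4 ChIP libraries exceed the median together in 5 bins, and the input has a single bin of 292 peaks, 3 Mb from the end.

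The densest bin by mean rank over the ChIP lists was Z:7000001-8000000. It held 137 and 135 H4R3me2a peaks and 177 and 166 H3R2me2s peaks, with 13 in the input, and 56 regions covered by all 4 ChIP lists. The neighbouring bin Z:8000001-9000000 held 127 and 104 H4R3me2a and 134 and 147 H3R2me2s peaks, with 7 in the input and 60 regions of all 4 lists. Within this pair of bins, 2 blocks, chosen after the values were seen, had many peaks in every ChIP list. In the 4 bins of 100 kb from Z:7600001 to 8000000 each ChIP list had 17 to 32 peaks per bin. In the 2 bins from Z:8400001 to 8600000 each had 24 to 42, and these 2 bins held 44 regions of all 4 lists. Between the blocks, Z:8100001-8200000 held 2 peaks in each H4R3me2a list, and 0 and 3 H3R2me2s peaks. Peaks were not confined to the blocks: Z:7400001-7500000 held 18 and 15 H4R3me2a and 26 and 17 H3R2me2s peaks.

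Both ends of Z were also dense. The first bin, Z:1-1000000, held 132 and 91 H4R3me2a peaks and 126 and 132 H3R2me2s peaks, with 2 in the input. The last, Z:74000001-74602318, is shorter, and its densities were 146 and 103 peaks per Mb for H4R3me2a, 141 and 148 for H3R2me2s and 4.98 for the input. In these bins all 4 ChIP lists were above their macrochromosome median while the input was below its own of 8 peaks per Mb. The fifth of the dense bins, Z:71000001-72000000, held 75 and 179 H4R3me2a peaks, 71 and 141 H3R2me2s peaks and 292 input peaks. Its replicate 2 counts were above its replicate 1 counts in both marks, and its input density was the highest on Z. Covered bases went the other way, at 25.4% in replicate 1 and 12.8% in replicate 2 for H4R3me2a, and 18.7 and 14.6% for H3R2me2s.

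The sparsest bin was Z:24000001-25000000, with 1 peak in each H4R3me2a list, 2 and 6 H3R2me2s peaks and none in the input. Its last 861 kb belonged to a stretch without a peak in any of the 5 lists, which ran across the edge of the members from Z:24138943 to 25645610 (1507 kb) and was named after its length was seen. Whether this stretch is sequence that could be mapped was not tested. Next came Z:3000001-4000000 with 12 and 7 H4R3me2a and 19 and 12 H3R2me2s peaks, and Z:15000001-16000000 with 12 in both H4R3me2a lists and 19 and 29 H3R2me2s peaks. Z:17000001-18000000 had 14 and 12 H4R3me2a and 22 and 26 H3R2me2s peaks, and Z:2000001-3000000 had 18 and 8 and 24 and 26. Between the last of these and the dense first bin of the chromosome lay Z:1000001-2000000, with 75 and 57 H4R3me2a and 82 and 97 H3R2me2s peaks. The longest stretches with no ChIP peak that lay wholly among the members were Z:36094278-36287614 (193 kb), Z:17019403-17196628 (177 kb), Z:72510000-72658551 (149 kb), Z:58617930-58762368 (144 kb) and Z:2369372-2501744 (132 kb). The fourth held 1 input peak and the others none. Such stretches of 100 kb or more, wholly among the members, made up 4.12% of the members' length, against 3.61% of the macrochromosomes. The share on Z leaves out the empty 861 kb before 25 Mb and would be higher with them. The median distance between peaks of any ChIP list was 5.53 kb on Z against 2.77 kb on macrochromosomes.

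The distal end from 71 Mb was denser than the rest of Z in all 5 lists. H4R3me2a had 70.8 and 85.8 peaks per Mb there against 34.1 and 32.4 on the rest, and H3R2me2s had 76.3 and 90.2 against 40.2 and 47.5. The input had 85.2 against 5.39. The log2 ratio over the 4 ChIP libraries averaged 1.08 ± 0.23 (SD, n = 4), a 2.11-fold higher density found in 4 of 4 libraries (2-sided exact permutation p = 0.125, the smallest 4 libraries allow). The input ratio was 15.8. The boundary at 71 Mb was set with earlier results of these data known, so the permutation test is no independent support for a dense distal end. The log2 ratio was 0.67 for the 50% of peaks with the highest fold enrichment and 0.67 for peaks off input peaks. Peaks off input peaks were 1.79 and 1.53 times denser at the distal end for H4R3me2a and 1.71 and 1.38 times for H3R2me2s. From 72 Mb on, where the input had 5.76 peaks per Mb, the ratios to the rest of Z were 2.03 and 1.54 for H4R3me2a, 1.95 and 1.49 for H3R2me2s and 1.07 for the input. The density of the marks from 72 Mb on was uneven. Z:72000001-73000000 held 39 and 29 H4R3me2a and 55 and 42 H3R2me2s peaks, with both replicate 2 counts below the density on the rest. Z:73000001-74000000 held 53 and 39 H4R3me2a and 64 and 53 H3R2me2s peaks. The last bin, Z:74000001-74602318, had 146 and 103 H4R3me2a and 141 and 148 H3R2me2s peaks per Mb.

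Most distal input peaks stood in clusters, defined as 5 or more input peaks with gaps of at most 5 kb. Of the 307 distal input peaks, 279 (90.9%) lay in 3 clusters between Z:71545970 and 71876457, a span of 330 kb. By number of peaks they ranked 1, 2 and 4 among all input chains of the genome. The cluster at Z:71545970-71716681 held 153 input peaks, and the clusters at Z:71774028-71876457 and Z:71721713-71768509 held 86 and 40. Neighbouring input peaks in them were a median of 819, 798 and 890 bp apart, and their median pileups of 127, 125.5 and 136 fragments were above the 23 of input peaks on the rest of Z. The deposited folds were low, with medians of 2.50, 2.41 and 2.62 against 5.33 on the rest of Z.

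Peaks of both marks covered part of each of these clusters in all ChIP lists. The replicate 2 lists were called without a control, and the part of background in the peaks here was not tested. H4R3me2a peaks covered 63.2 and 30.9% of the largest cluster and H3R2me2s peaks 57.6 and 31.9%, with input peaks on 25.1%. In the cluster of 86 input peaks H4R3me2a covered 60.7 and 28.0% and H3R2me2s 19.7 and 32.2%. In the cluster of 40 the values were 51.2 and 33.5% for H4R3me2a and 22.1 and 42.2% for H3R2me2s. Of the 4 ChIP lists, H3R2me2s replicate 1 thus varied most between the clusters. Over the whole span every replicate 1 peak and 94.2% of the H4R3me2a and 93.6% of the H3R2me2s replicate 2 peaks lay on an input peak. The span was defined by closely spaced input peaks, so overlap by 1 bp was likely in advance and these shares are descriptions only. In replicate 1 the peaks were few and broad, with 30 of H4R3me2a at a median width of 5096 bp and 23 of H3R2me2s at 3673 bp. Their median folds of 9.53 and 7.36 were close to the 9.655 and 7.8 on Z before 71 Mb. In replicate 2 the peaks were many, 138 of H4R3me2a at 579.5 bp and 94 of H3R2me2s at 1052 bp. Their median folds were lower, at 1.97 and 1.91 against 3.22 and 2.91 on Z before 71 Mb.

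The rest of the distal end, outside that span, had 68.8 and 52.3 H4R3me2a peaks per Mb, 77.0 and 70.6 H3R2me2s peaks per Mb and 8.56 input peaks per Mb. These were 2.02 and 1.61 times the density before 71 Mb for H4R3me2a, 1.92 and 1.49 times for H3R2me2s and 1.59 times for the input. Of these peaks 8.44 and 11.7% (H4R3me2a) and 7.54 and 8.23% (H3R2me2s) lay on input peaks. The density of the marks outside the span was uneven, as the 1 Mb bins given above show. The 4 bins of 100 kb from Z:74100001 to 74500000 were chosen after their values were seen and held 11 to 22 peaks each in every ChIP list, and 29 regions of all 4 lists, with 1 input peak in all. H4R3me2a peaks covered 10.6 to 23.2% of each of these bins in replicate 1 and 5.44 to 10.8% in replicate 2. H3R2me2s peaks covered 11.4 to 21.4% in replicate 1 and 11.4 to 16.7% in replicate 2. The final bin of 2318 bases was covered to 99.6% by H4R3me2a, 100% by H3R2me2s and 98.5% by input peaks of the Illumina lists and held no SOLiD peak. Within the distal end the ChIP lists were thus dense both where the input was dense and, within 500 kb of the end, where it was sparse.

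**Figure D3:**
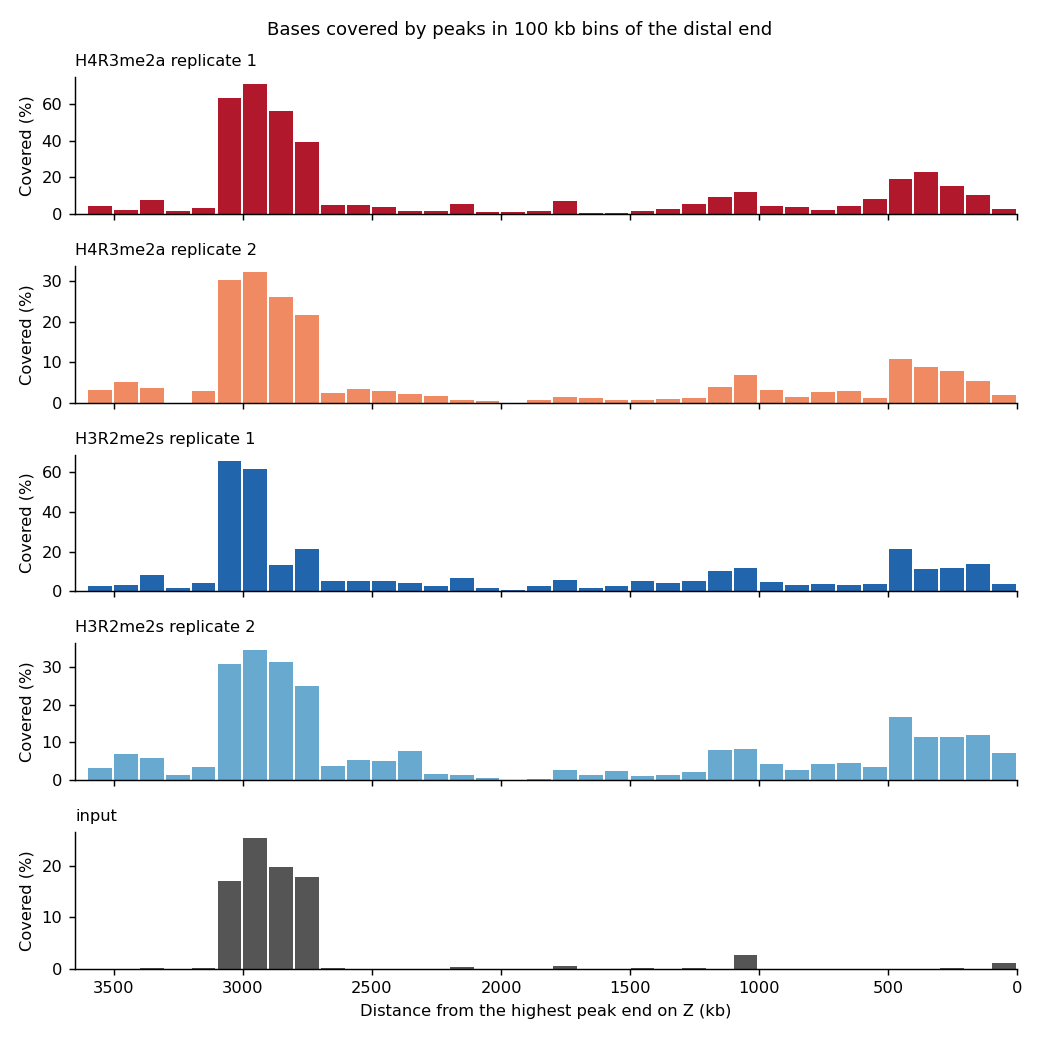
Percent of bases covered by peaks (vertical axes, with a scale of their own in each panel) in 100 kb bins of the distal end, by distance from the highest peak end on Z in kb (horizontal axis), 1 panel per library; the short last bin is not drawn. All 5 lists are high 2952 kb from the end, where input cover is 25.3%, and the 4 ChIP lists are high again between 152 and 452 kb from the end, where input cover is at most 0.144%.

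Elsewhere on Z the input had 7 clusters with 40 peaks. The cluster at Z:54904914-54914266 held 8 peaks and that at Z:7854249-7860784 held 7. The other 5 held 5 each and lay at Z:4925720-4930742, Z:7866787-7872599, Z:52157139-52162354, Z:54891593-54897981 and Z:61237998-61246293. H4R3me2a of replicate 1 covered 0% of the cluster at Z:54891593-54897981 and 60.2% or more of the other 6. In that cluster H4R3me2a of replicate 2 covered 22.9%, and H3R2me2s 23.4 and 26.1%. In the other 6 H4R3me2a of replicate 2 covered 40.4% or more, and H3R2me2s 47.9% or more in replicate 1 and 37.2% or more in replicate 2. Thus 6 of the 7 clusters carried peaks of both marks in all 4 ChIP lists, and a pair of them lay inside the densest bin. Clusters on other chromosomes were not counted in this way, so the count describes Z only.

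Of the input peaks on Z, 65.4% (61.6 to 69.0) lay on an H4R3me2a peak of replicate 1, against 43.0% on macrochromosomes and 52.3% over all chromosomes. For H4R3me2a replicate 2 the share was 77.5% (74.1 to 80.6) on Z, against 86.2 and 87.6%. For H3R2me2s replicate 1 it was 56.3% (52.4 to 60.1) on Z, against 43.5 and 49.3%, and for replicate 2 it was 76.6% (73.1 to 79.7), against 88.0 and 89.3%. The Z share was thus above that of the macrochromosomes for both SOLiD lists and below it for both Illumina lists.

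On input peaks lay 7.67% (6.66 to 8.82) and 15.9% (14.5 to 17.5) of the Z peaks of H4R3me2a replicates 1 and 2. For all chromosomes the shares were 5.16 and 6.63%, and for macrochromosomes 6.46 and 7.62%. For H3R2me2s they were 6.67% (5.79 to 7.67) and 9.90% (8.92 to 10.98) on Z, 3.72 and 6.13% over all chromosomes, and 4.70 and 7.04% on macrochromosomes. Z exceeded macrochromosomes by 3.59 ± 3.22 percentage points (SD, n = 4 libraries, higher in 4 of 4, 2-sided exact permutation p = 0.125). All 4 differences used the same single input list, so their spread and this p do not cover that between input libraries. The excess was 1.59 points without replicate 2, 5.59 without replicate 1 and 7.58 in the upper 50% of each list. Where input peaks had to cover at least 50% of the peak it was 2.07 (2-sided exact permutation p = 0.25). The excess was smaller without the distal end: before 71 Mb it was 1.07 ± 1.51 points, less than the spread between libraries. H4R3me2a replicate 1 then had 6.26% on Z, below its macrochromosomes, and the other ChIP lists stayed above theirs. The shares of these lists before 71 Mb were 10.8% (9.54 to 12.3) for H4R3me2a replicate 2 and 5.71 and 7.32% for H3R2me2s. Without the bin from 71 to 72 Mb, a setting chosen after the values were seen, the excess was 0.927 ± 1.45 points.

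The overlap of H4R3me2a peaks with H3R2me2s was lower on Z than on macrochromosomes in replicate 1 and higher in replicate 2. In replicate 1, 71.7% (69.8 to 73.5) of the H4R3me2a peaks on Z overlapped an H3R2me2s peak, against 86.3% on macrochromosomes and 89.3% over all chromosomes. In replicate 2 the share was 86.95% (85.5 to 88.3) on Z, 84.9% on macrochromosomes and 84.3% in all. Z minus macrochromosomes was -14.6 points in replicate 1 and 2.09 points in replicate 2, with a mean of -6.26 ± 11.8 (SD, n = 2, exact permutation p = 1), smaller than the spread. Seen from H3R2me2s, 62.6% (60.8 to 64.4) of the Z peaks overlapped H4R3me2a in replicate 1, against 63.8% on macrochromosomes and 69.4% in all, and 56.95% (55.2 to 58.7) did in replicate 2, against 74.2 and 73.8%. Seen this way the share was lower on Z in both replicates, with a mean difference from macrochromosomes of -9.19 ± 11.4 points (SD, n = 2, exact permutation p = 0.5), which was smaller than the spread.

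Replicates shared fewer of the replicate 1 peaks on Z. Of the H4R3me2a peaks of replicate 1 on Z, 49.4% (47.4 to 51.4) overlapped replicate 2, against 74.5% on macrochromosomes and 68.5% over all chromosomes. Of those of H3R2me2s, 56.4% (54.5 to 58.2) did, against 69.9 and 65.9%. The mean difference from macrochromosomes was -19.3 ± 8.17 points (SD, n = 2 marks, negative in both, exact permutation p = 0.5, the smallest 2 marks allow). Seen from replicate 2 the direction turned, with 58.2% on Z against 41.1% on macrochromosomes for H4R3me2a and 48.7 against 46.3% for H3R2me2s, where all chromosomes gave 51.2 and 56.3%. Beside these shares stand the densities given above: on macrochromosomes replicate 2 held more peaks per Mb than replicate 1 for both marks, and on Z it did so only for H3R2me2s. The part of peak number in the shares was not tested.

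**Figure D4:**
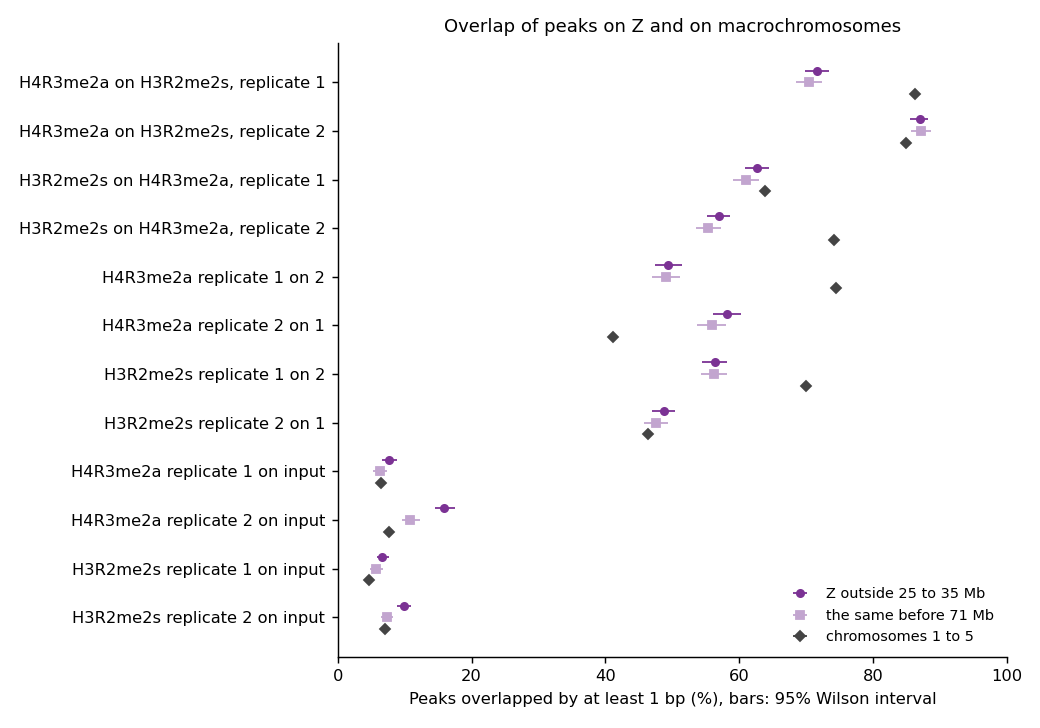
Percent of peaks overlapped by at least 1 bp (horizontal axis) for each pair of lists (vertical axis), on Z outside 25 to 35 Mb, on the same before 71 Mb and on chromosomes 1 to 5; bars are 95% Wilson intervals for counting error. Overlap with the input is above that of chromosomes 1 to 5 in the 4 ChIP lists on Z. H4R3me2a on H3R2me2s differs in direction between replicates, while H3R2me2s on H4R3me2a is lower on Z in both.

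Regions found in both replicates of a mark numbered 1367 on Z for H4R3me2a and 1639 for H3R2me2s, or 21.2 and 25.4 per Mb, against 40.1 and 49.7 per Mb on macrochromosomes, ratios of 0.528 and 0.511. Regions covered by all 4 ChIP lists numbered 932 on Z, or 14.4 per Mb against 31.98 on macrochromosomes, a ratio of 0.451. Their median width was 428 bp against 452 bp. Input peaks lay on 205 of the 932 (22.0%, 19.4 to 24.8), against 8.61% on macrochromosomes and 7.07% over all chromosomes, and before 71 Mb on 119 of 770 (15.5%, 13.1 to 18.2). Gathered in chains with gaps of at most 5 kb, 123 of the 932 (13.2%) stood in 17 chains of 5 or more. No share for macrochromosomes stands beside this one, so it describes Z only.

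A larger share of H3R2me2s regions lacked the other mark on Z than on macrochromosomes, by a measure that uses both replicates and so has no replicate of its own. Of the 1639 Z regions of H3R2me2s, 294 (17.9%, 16.2 to 19.9) overlapped no H4R3me2a peak of either replicate, against 7.35% (7.07 to 7.65) on macrochromosomes and 6.86% over all chromosomes. Of the 1367 Z regions of H4R3me2a, 56 (4.10%, 3.17 to 5.28) overlapped no H3R2me2s peak, against 2.83% (2.63 to 3.04) on macrochromosomes and 2.32% in all. Regions with a single mark were narrower on Z, at medians of 288 against 455 bp for H4R3me2a and 411.5 against 558 bp for H3R2me2s. They were narrower on macrochromosomes too, at 293 against 485 bp and 390 against 558 bp. Input peaks lay on 1 of the 56 and on 2 of the 294. Such overlap was also rare elsewhere, with 6 of 709 and 6 of 2287 on macrochromosomes and 13 of 1409 and 13 of 5031 over all chromosomes. A missing peak means only that the site stayed under the caller's threshold at that depth, and H4R3me2a had fewer peaks than H3R2me2s in both replicates.

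By the rule for named regions, the top regions of all 4 lists were ranked by mean rank of the authors' fold enrichment. That order was shared by the marks within a replicate (Spearman's rho over the 932 regions 0.62 in replicate 1 and 0.78 in replicate 2) and not by the replicates of a mark (rho -0.026 for H4R3me2a and -0.00043 for H3R2me2s), so the ranks describe sites high in both platforms and not a common scale. The first was Z:61741689-61742465, where the deposited folds were 37.8 and 13.4 for H4R3me2a and 40.9 and 14.3 for H3R2me2s. Z:52168498-52169373 followed with 41.1 and 9.35 for H4R3me2a and 19.1 and 7.40 for H3R2me2s. Next were Z:51737176-51739310, Z:6908518-6909073 and Z:66478791-66479724. All 5 lay on input peaks, which covered 246 to 599 bp of each, while 22.0% of the 932 regions did so. The replicate 2 folds were computed without a control, and the part of input signal in this ranking was not tested.

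Among regions off input peaks the first was Z:9211932-9212350, 419 bp wide, with deposited folds of 19.8 and 6.08 for H4R3me2a and 14.0 and 7.78 for H3R2me2s. Z:35985607-35986032 had 29.5 and 6.20 for H4R3me2a and 15.8 and 4.79 for H3R2me2s. Z:23491657-23492051, Z:8501658-8502167 and Z:59919154-59919627 followed, and the fourth lay in the block at Z:8400001-8600000. These sites were 395 to 510 bp wide and spread over 51.4 Mb of the chromosome.

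The longest chains of regions in all 4 lists were at the distal input clusters. Z:71545915-71576742 (30.8 kb, 11 regions) and Z:71619864-71650311 (30.4 kb, 16 regions) held 28 and 27 input peaks. Z:71512914-71537596 (24.7 kb, 11 regions) lay just before the clusters with 6 input peaks on 5.83% of it, and H4R3me2a covered 79.3 and 35.4% and H3R2me2s 75.05 and 36.1%. Z:8473034-8488527 (15.5 kb, 9 regions) in the second block had input peaks on 7.27%, and Z:54899585-54914313 (14.7 kb, 4 regions) on 15.4%.

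The widest members of replicate 1 lay in the second of these chains, and those of the other lists lay elsewhere. The widest H4R3me2a peak of replicate 1, Z:71626350-71648116 (21.8 kb), had only 2 wider peaks in its list, and the widest H3R2me2s peak of replicate 1, Z:71626379-71648081 (21.7 kb), was the widest of its whole list. In replicate 2 the widest peaks of H4R3me2a, Z:59637329-59641499 (4171 bp), and of H3R2me2s, Z:59637211-59641499 (4289 bp), were at a single site, which replicate 1 peaks also covered to 97.7% or more and input peaks to 26.4% or more. The widest input peak was Z:74599584-74602284 (2701 bp), at the very end, where replicate 1 had no peak of either mark.

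The best ranked H4R3me2a regions with no H3R2me2s peak were Z:13122056-13122258, with deposited folds of 15.6 and 5.13, and Z:57792008-57792332, with 15.1 and 4.13, followed by Z:22410610-22410944, Z:59904109-59904389 and Z:74073010-74073442. For H3R2me2s without H4R3me2a they were Z:49976247-49976608, with 10.7 and 4.87, and Z:64415577-64415981, with 10.7 and 4.79, followed by Z:44903294-44903728, Z:73790321-73790731 and Z:2028368-2029132. None of the 10 lay on an input peak, as was so for most regions with a single mark, and they were 203 to 765 bp wide.

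At the edges of the stretch left out, the bin Z:24000001-25000000 held 1 and 1 H4R3me2a and 2 and 6 H3R2me2s peaks, and the bin inside, Z:25000001-26000000, held 14 and 16 and 16 and 23. On the other side, Z:35000001-36000000 held 25 and 21 H4R3me2a and 29 and 33 H3R2me2s peaks, and the bin inside, Z:34000001-35000000, held 29 and 32 and 34 and 40. The stretch of 25 to 35 Mb was less dense than the members in every list, at 0.551 and 0.682 of their density for H4R3me2a, 0.637 and 0.716 for H3R2me2s and 0.559 for the input.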

How the data were processed

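The data were 5 deposited peak lists, 1 per library. Per the file headers, the authors called replicate 1 of each mark with MACS 1.4.2 against 1 shared control library of 23.3 M tags and replicate 2 and the input with MACS 2.0.10.20120913 without a control, with 1 tag per position and an effective genome size of 1e+09. The aligner is not given in the sources used here. Deposited values per peak were, in the Illumina lists, the pileup signal, fold enrichment (a ratio) and −log10 p- and q-values, and in the SOLiD lists the tag count, fold ratio, a score (10 times −log10 p) and the false discovery rate in percent. They describe and rank peaks within a list only.

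Intervals were handled with numpy 2.4.6 and pandas 2.3.3 and checked on simulated data. The length of a chromosome was its highest peak end in any list, with assembly gaps left in. Peaks were put in bins by their midpoint, and overlap was 1 bp or more. Tests were exact permutations over libraries or pairs of lists. Marks were compared within a replicate number, which both marks share as a platform and caller, per the labels' protocols and the file headers: overlaps of marks and the SD of the mark difference are over these pairs, while its p is from permuting the mark over 4 libraries. Regions were named by rank (density, fold enrichment, chain length, input clusters, gaps, width, single mark). The members and lists were chosen with earlier results of these data known. All samples had a group and all lists were used.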

Additional observations from a re-analysis of the deposited data

Results flagged for a closer look

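The contrast of the marks on Z had opposite signs in the replicates, which differ in platform, depth, caller and control, and this difference was not tested. The log2 ratio of Z to macrochromosome density, H4R3me2a minus H3R2me2s, was 0.24 in replicate 1 and -0.40 in replicate 2. The share of H4R3me2a peaks that overlapped H3R2me2s was 14.6 percentage points lower on Z than on macrochromosomes in replicate 1 (-14.6) and 2.09 points higher in replicate 2.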

How the results depend on the processing

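Of 81 alternative values, 74 kept their direction and 7 reversed (8 of the 81 were chosen after seeing the data). The 74 include the replicate block, whose mean equals the main value by construction. They also include the bins of 500 kb, a share without a direction that was judged by its size. The lower density on Z kept its direction in all 13 alternatives (log2 ratio -1.61 to -0.57), as did the higher distal density in 8 (0.67 to 1.60) and the higher share on input peaks in 11 (0.927 to 7.58 points). The mark difference in Z density turned to 0.32 with equal numbers of peaks and, leaving out 1 replicate at a time, ranged from -0.40 to 0.24. With replicate number as a block it was -0.08 (exact permutation p = 1), and the number stands for a platform, a caller and, in replicate 1, a control library that both marks share. The width ratio turned to 0.025 in the upper 50% of each list and 0.0084 with equal numbers, and ranged from -0.069 to 0.0011 leaving out 1 replicate. The overlap of marks ranged from -14.6 to 2.09 points leaving out 1 replicate, and the overlap of replicates was 9.74 points seen from replicate 2. The causes were not tested, and no other of the 81 values reversed. Bins of 500 kb gave 6.92% above the macrochromosome median. Depth limits the lists: a site without a peak was under threshold, not shown to be unmarked, and the read depth at such a site is unknown.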
